A study of Mus musculus with 2 samples.

Results

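The early growth response factors Egr1, Egr2, Egr3 and Egr4 and the corepressors Nab1 and Nab2 that bind them were followed in 2 RNA libraries of cultured mouse dermal cells. These 6 genes, of 17431 with a read, were chosen by gene symbol, and the set was proposed with their levels in these same libraries known, so every level and ratio of a member below is a description with no test. Both cultures came from the dermis of BALB/c mice. Fibroblasts came from mice at postnatal day 3 and were fed DMEM plus 10% fetal bovine serum. Skin-derived precursors (SKPs), multipotent dermal cells that can be grown from neonatal skin, came from mice at postnatal day 4. SKPs were kept in a mixture of DMEM and F12 with 40 ng/ml FGF2, 20 ng/ml EGF and 2% B27 supplement. Cell type, serum, growth factors and age therefore differ together between the libraries and cannot be told apart. There was 1 library per group, so no difference has a replicate check.

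EGR proteins are zinc-finger transcription factors that bind GC-rich sites in promoters. Their genes are immediate-early genes: growth factors and serum switch them on through the ERK kinase cascade, which acts on serum response factor (SRF) and its ETS partners at CArG boxes, without new protein synthesis. NAB1 and NAB2 bind a repression domain that EGR1, EGR2 and EGR3 share and EGR4 lacks, and they recruit the NuRD chromatin remodelling complex. Nab2 is itself a target of EGR factors, which closes a feedback loop. EGR2 is best known in the nerve as the regulator that drives Schwann cells to make myelin, and EGR1 in skin fibroblasts as a mediator of the response to wounding and TGF-beta.

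Of the 4 EGR genes, 3 were far higher in the SKP library and 1 was barely detected in either, whereas neither NAB gene followed. A gene counted as expressed at 1 RPKM (reads scaled to gene length and to the total counted reads) and 20 reads in either library, and 5 of the 6 members passed. Of these, Egr2 and Egr3 passed only through the SKP library, so neither could be called lower. An expressed gene was called higher or lower at 2-fold or more, with a 95% exact counting interval of the ratio that left out 1. By that rule 3 members were higher in the SKP library, where 12.1% of all 12053 expressed genes were, and 0 were lower, against 6.41% of expressed genes. Because the members were proposed from this contrast, nothing is read from that count. Intervals in parentheses cover counting error only, and they are too narrow even for that where duplicate reads are not independent molecules.

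Egr1, the most abundant EGR gene in both cultures, had 978 fibroblast reads and 5492 SKP reads, or 17.3 RPKM (16.2 to 18.4) against 94.3 RPKM (91.9 to 96.9). The SKP level was 5.45-fold higher (5.09 to 5.84) and stood above 94.4% of expressed genes, where the fibroblast level stood above 66.1%. Egr1 was thus already well expressed in serum-fed fibroblasts.

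Egr2, also known as Krox20, had 50 fibroblast reads and 2020 SKP reads. The level was 0.914 RPKM (0.678 to 1.21) against 35.9 RPKM (34.3 to 37.5), a 39.2-fold difference (29.6 to 53.1) and the largest point value of the family. In fibroblasts it stood above 5.92% of expressed genes and in SKPs above 83.0% of them, and 139 expressed genes had a higher ratio. Egr2 counted among the expressed genes only through its SKP level, so these ranks are descriptions and no support. The few fibroblast reads lay along 51.75% of the gene, and the median was 46.95% among 179 genes with a like number of reads and length, so they were not a pile at 1 place. In the SKP library 97.24% of the gene was under reads.

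Egr3, which is needed for muscle spindles, had 13 reads against 267. That is 0.499 RPKM in fibroblasts (0.266 to 0.853) and 9.95 RPKM in SKPs (8.79 to 11.2), 19.9-fold higher (11.5 to 38.0). Its counting error is the widest of the 3 because the fibroblast value rests on 13 reads. Reads were counted over a gene model of 1416 bases, while the exons of Egr3 in GENCODE M21 cover 4406 bases. That choice bears on its level beside other genes and not on its ratio. The same holds for Egr1, counted over 3072 bases against 4484 exonic bases there, and so for sums over genes.

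Egr4, a family member known mainly from neurons, had 1 read in each library, at 0.0259 and 0.0251 RPKM. Both counts lie under a floor of 3 reads, which here is worth 0.0776 and 0.0754 RPKM, so no fold is given. At this depth Egr4 was not detectable above the floor in either culture.

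**Figure D1:**
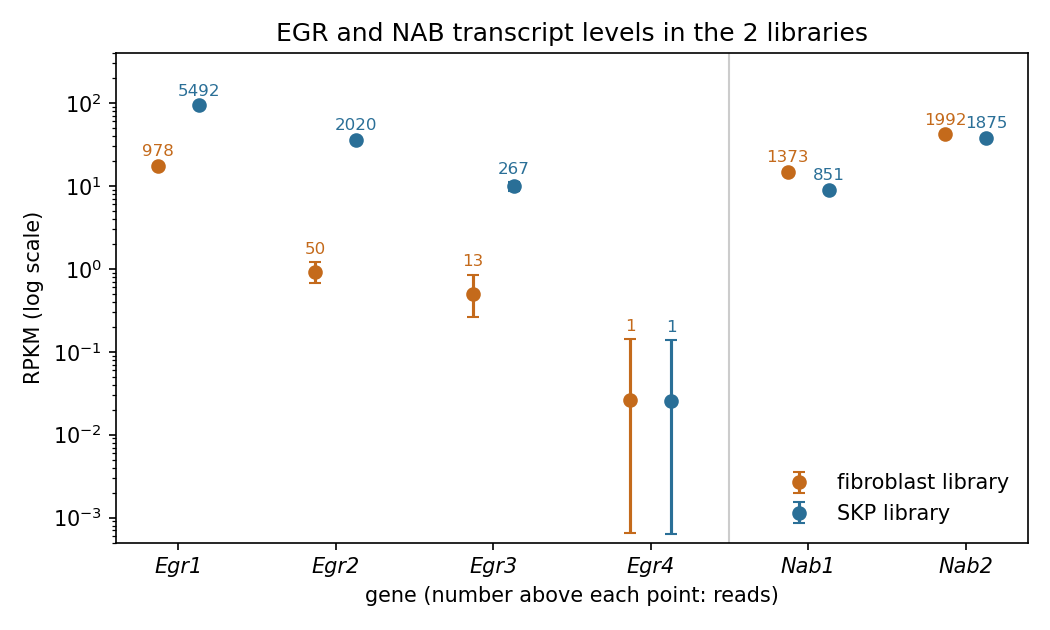
RPKM of each member on a log axis in the fibroblast (orange) and SKP (blue) libraries, with 95% exact Poisson intervals and the number of reads above each point. Egr1, Egr2 and Egr3 sit far apart between the libraries, Nab1 and Nab2 sit close together, and both Egr4 points rest on 1 read.

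Of these 3 EGR genes, Egr2 and Egr3 had ratios that differed from that of Egr1 by more than counting error. The ratio of Egr2 was 7.19 times that of Egr1 (5.39 to 9.60) and that of Egr3 was 3.66 times that of Egr1 (2.09 to 6.41). Between Egr2 and Egr3 the factor was 1.97, and its interval of 1.05 to 3.67 left out 1 only narrowly. That interval is approximate, since Egr3 had only 13 fibroblast reads. The difference between Egr2 and Egr3 is therefore treated as not resolved. Egr2 and Egr3, the lower of the 3 in fibroblasts, had the higher ratios, so that Egr1 made up 92.3% of the summed EGR RPKM in fibroblasts and 67.3% in SKPs. Egr2 went from 4.88% to 25.6% and Egr3 from 2.66% to 7.10% of that sum.

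Neither NAB gene was 2-fold apart, and both had the lower level in SKPs. Nab2, the corepressor induced by EGR factors themselves, had 1992 fibroblast reads and 1875 SKP reads. At 41.7 RPKM (39.9 to 43.6) against 38.2 RPKM (36.5 to 39.9) it was 1.09-fold lower in SKPs (1.03 to 1.17). Nab1, the corepressor that is regarded as the more constant of the pair, had 1373 reads against 851. Its level was 14.6 RPKM (13.9 to 15.4) against 8.81 RPKM (8.23 to 9.42), 1.66-fold lower in SKPs (1.52 to 1.81). That is under the 2-fold limit, and 10.2% of expressed genes had a lower ratio. Nab2 exceeded Nab1 in both libraries, by 2.85-fold (2.66 to 3.06) in fibroblasts and 4.33-fold (3.99 to 4.70) in SKPs.

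The gene models limit both NAB values. No source used here states whether reads were counted by strand, and 1050 of 2941 exonic bases of Nab2 in GENCODE M21 are shared with the antisense gene Gm16229. A further 151 are shared with Nemp1 (listed in the files as Tmem194, 1.84 against 1.83 RPKM) and 40 with Stat6 (37.1 against 29.3 RPKM), both on the opposite strand. If counting ignored the strand, reads of Nab2 and of these partners cannot be told apart within the shared exons. For Nab1, 75.17% of the gene length was under fibroblast reads and 70.52% under SKP reads, although the medians among 298 and 356 genes of like reads and length were 95.8% and 93.8%. Part of its gene model thus carried no reads in each library. That model has 5098 bases, while the exons of Nab1 in GENCODE M21 cover 4100. Of the 49-base stretches of its transcripts, 2.48% were identical to one of another gene, as were 35.1% of those of Nab2, which lie partly in the shared exons. The EGR genes share no exon with another gene in that annotation, and 0 of their 49-base stretches, the read length, were identical to one of another gene. With up to 2 mismatches, 10 of 3484 such stretches of Egr2 matched Egr3.

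**Figure D2:**
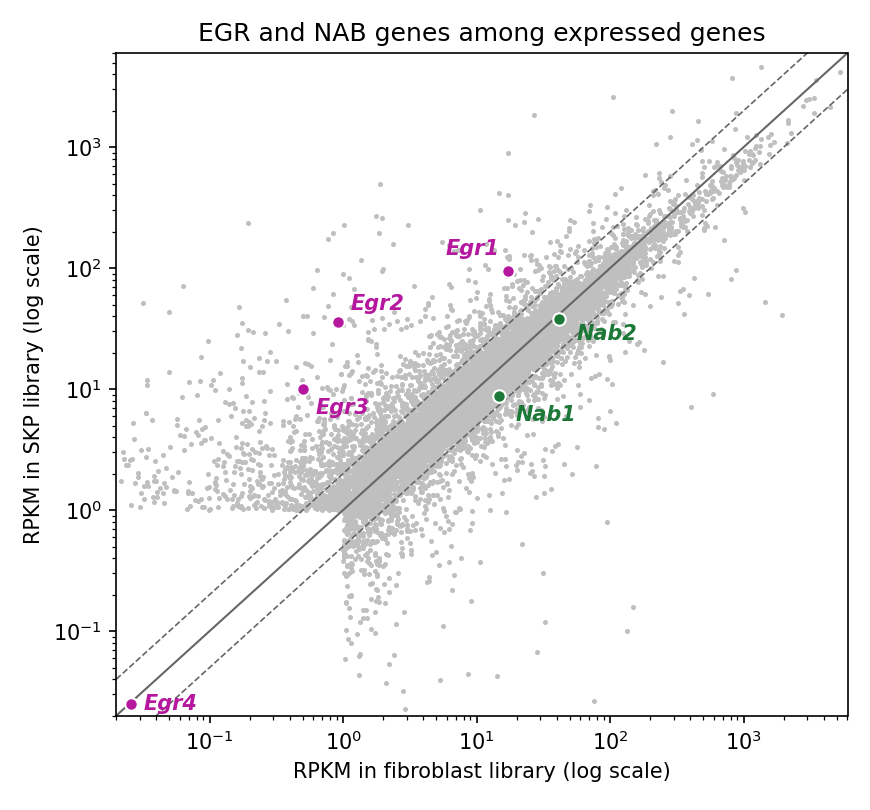
RPKM in the fibroblast library (x) against the SKP library (y), both on log axes, for 11998 expressed genes with reads in both (grey; 10 lie outside the axes), with the EGR genes in magenta and the NAB genes in green. The solid line marks equal levels and the dashed lines a 2-fold difference: Egr1, Egr2 and Egr3 lie above the upper dashed line, while Nab1, Nab2 and Egr4, which is below the expression limit, lie between the lines.

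Within each library the order of levels was resolved in part. In fibroblasts it ran Nab2, Egr1, Nab1, Egr2, Egr3 and Egr4, and the intervals of Egr2 and Egr3 overlapped (Egr2 over Egr3 1.83-fold, 0.995 to 3.37). In SKPs it ran Egr1, Nab2, Egr2, Egr3, Nab1 and Egr4. There the intervals of Nab2 and Egr2 overlapped, and so did those of Egr3 and Nab1. Egr1 changed places with Nab2: it was at 0.414 times the Nab2 level in fibroblasts (0.384 to 0.447) and at 2.47 times in SKPs (2.35 to 2.61).

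The balance of factors to corepressors was inverted between the libraries. The RPKM of the 4 EGR genes summed to 18.7 in fibroblasts and 140.2 in SKPs, 7.48-fold higher (7.01 to 7.99 by the delta method), while the NAB sum was 56.4 against 47.0, a ratio of 0.833 (0.791 to 0.878). The NAB sum was 3.01 times the EGR sum in fibroblasts (2.80 to 3.23) and 0.335 times in SKPs (0.320 to 0.350). These are levels of RNA and say nothing of protein.

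**Figure D3:**
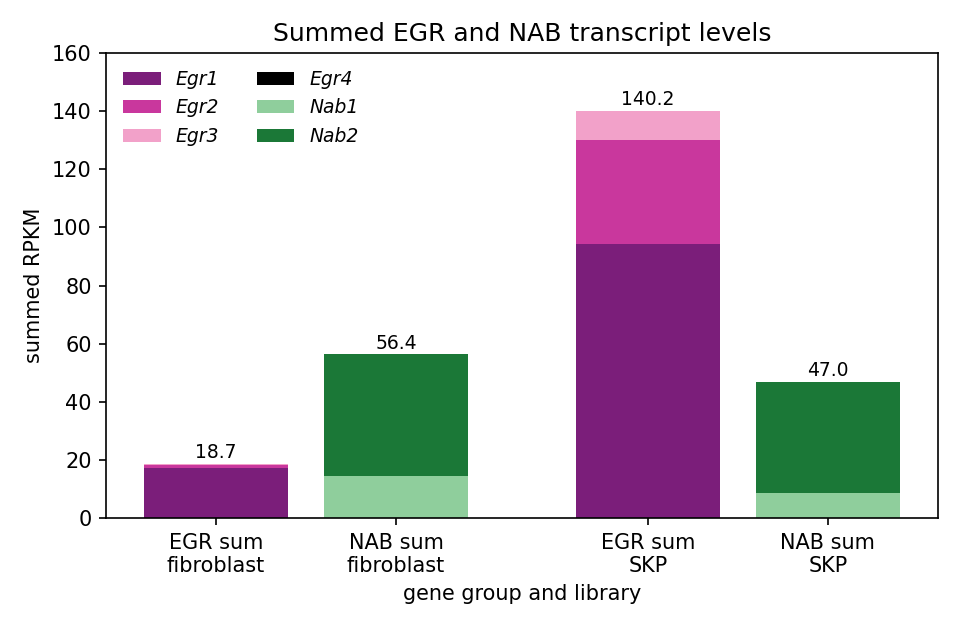
Summed RPKM of the EGR genes (purple to pink) and the NAB genes (green) in each library, stacked by gene, with the sum above each bar. The EGR bar is the shorter of the pair in fibroblasts (18.7 against 56.4) and the taller in SKPs (140.2 against 47.0).

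Start regions of the members were searched for 3 motifs to show their sequence context. RefSeq windows of 250 bases before each start (GRCm38.p6, a later build than the mm9 of the files) were found for 4 members: Egr2, Egr4, Nab1 and Nab2. Egr1 and Egr3 had no entry. The motifs were the CArG box bound by SRF, the core TGACG of the cyclic AMP response element (CRE), and the EGR site GCGNGGGCG, each on both strands. They occur in 1.47%, 17.8% and 4.70% of all 32851 windows. Of 5 overlapping or neighbouring Egr2 windows, 4 held a CArG box, and these were 2 distinct boxes. The Egr4 window held 2 CRE cores and no CArG box, and the Nab1 window held 3 EGR sites and 1 CRE core. The Nab2 window held none of the 3 motifs. No match overlapped another.

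The sites are shown 5′ to 3′ in the direction of the gene, with the motif in capitals; CGTCA is TGACG and CGCCCACGC is GCGTGGGCG read on the other strand. The first Egr2 piece holds a CArG box and a CRE core 72 to 51 bases before one annotated start, and the second holds the CArG box 72 to 63 bases before another start.
Egr2, chr10:67537793-67537822, plus strand: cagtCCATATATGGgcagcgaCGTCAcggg
Egr2, chr10:67537484-67537513, plus strand: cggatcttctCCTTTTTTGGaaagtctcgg
Egr4, chr6:85513752-85513776, minus strand: gcggcagcaaCGTCAcaggccgagc
Egr4, chr6:85513684-85513708, minus strand: tggtcatttaCGTCAcggcgccagg
Nab1, chr1:52500571-52500599, minus strand: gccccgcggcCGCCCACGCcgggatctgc
Nab1, chr1:52500539-52500567, minus strand: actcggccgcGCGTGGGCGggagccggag
Nab1, chr1:52500468-52500496, minus strand: gcggggcgggGCGGGGGCGgcggaggtgg

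Egr2, which was 39.2-fold higher in the SKP library, and Egr4, with 1 read in each, thus both carried CRE cores. Of the 4 genes searched only Egr2 carried a CArG box, but its 5 windows were more than any other gene had. Whether a motif bears on a ratio was not tested. In GENCODE M21, 231 of the 250 bases of the Nab1 window are exonic, so this window is largely transcribed in that annotation. A match is a string of letters and not a shown binding site.

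Genes of the pathway around the EGR factors were read from lists chosen with earlier results of these data known. Their counts and medians are thus descriptions with no test. Among all expressed genes, 12.1% were called higher in SKPs and 6.41% lower. The median ratio of all expressed genes was -0.0065 on the log2 scale of SKP over fibroblast RPKM. The feedback genes of ERK signalling, which growth factors switch on through the same cascade, had a median log2 ratio of 2.11. Of 15 expressed genes, 12 were higher in SKPs, 3 were neither and 0 were lower. That split depends on how genes were assigned. The phosphatase gene Dusp1 was listed with the immediate-early genes and was called lower in SKPs (12.8 against 25.8 RPKM). ERK activity was not measured. Etv1, an ETS factor of FGF signalling, stood at 38.0 RPKM against 3.00 (12.7-fold, 11.1 to 14.6). Dusp6, the phosphatase that switches ERK off, had 98.4 RPKM against 8.82 (11.2-fold, 10.1 to 12.3). The inhibitor gene Spry4 had 77.4 RPKM against 9.73 (7.95-fold, 7.39 to 8.56). All 3 ratios exceeded the 5.45-fold of Egr1 and lay below the 39.2-fold of Egr2.

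Other immediate-early genes did not share the direction of the EGR genes as a list. Among 30 expressed there were 5 higher in SKPs, 8 lower and 17 neither, where 12.1% of all expressed genes were higher and 6.41% lower. The median log2 ratio was -0.64. The 5 higher genes were Jun (67.9 RPKM against 16.9, 4.03-fold, 3.76 to 4.32), Klf10, Fosl1, Ier2 and Klf2, of which all but Jun were named after their values were seen. None of the 5 reached the ratio of Egr1. The matricellular genes Ctgf (5.26 RPKM against 110, 21.0-fold lower) and Cyr61 (85.9 against 228, 2.66-fold lower), both targets of serum signalling, and the nuclear receptor gene Nr4a1 (6.96 against 28.7, 4.12-fold lower) went the other way. Fos, like Egr1 a classical gene of the serum response, was named after its values were seen: it stood at 5.81 RPKM against 4.69 (1.24-fold, 1.02 to 1.51).

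Most expressed genes in the lists of FGF and EGF receptor families and of SRF and its cofactors were under 2-fold apart. Among all expressed genes 12.1% were higher and 6.41% lower, and nothing is read from counts among so few genes. Of 6 expressed receptor family genes, the split was 1 higher in SKPs, 1 lower and 4 neither, around a median log2 ratio of 0.28. The 4 were Fgfr1, Fgfrl1, Erbb2 and Erbb3. The EGF receptor gene Egfr stood at 20.3 RPKM against 9.62 (2.11-fold, 1.96 to 2.27), Fgfr2 at 1.83 against 8.83 (4.83-fold lower), and Fgfr1, the most abundant FGF receptor gene, at 152 against 84.5 (1.79-fold). Among 6 expressed genes of SRF and its cofactors, 1 was higher and 5 were neither, with a median log2 ratio of 0.38. The higher one was Elk4, an ETS partner of SRF (8.34 RPKM against 3.21, 2.60-fold, 2.22 to 3.05). Elk3 (52.5 against 30.9 RPKM) and Srf itself (15.8 against 26.6 RPKM) were under 2-fold apart.

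Genes that the literature describes as EGR targets went both ways. Among 23 expressed there were 10 higher in SKPs, 6 lower and 7 neither, where 12.1% of all expressed genes were higher and 6.41% lower. The median log2 ratio was 0.16. The urokinase gene Plau (421 RPKM against 14.7, 28.6-fold, 26.4 to 31.0) and the imprinted growth factor gene Igf2 (401 against 17.2, 23.3-fold, 22.0 to 24.6) had the highest ratios. Pdgfc, a ligand for the PDGF alpha receptor, was 9.65-fold lower (1.80 against 17.4 RPKM), and Col1a2, the most abundant gene of the list, was under 2-fold apart (1686 against 2136 RPKM). Each of these genes has other regulators, and their dependence on EGR factors was not measured.

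Of 10 myelin genes that need EGR2 in Schwann cells, only 5 were expressed. These split into 2 lower in SKPs, 3 neither and 0 higher, around a median log2 ratio of -0.33. Among all expressed genes 6.41% were lower and 12.1% higher. With so few genes a count of 0 higher lies near that share, and nothing is read from it. The lowest ratio was that of the myelin gene Mbp (0.318 RPKM against 1.35, 4.26-fold lower). On the log2(RPKM + 1) scale 0 genes of the list were lower. Prx, a gene of the mature myelin sheath, stood just under the limit at 1.49 RPKM against 0.744 (1.997-fold), and passed it when the libraries were scaled by the median ratio of expressed genes. Pmp22, which is also made outside the nerve, stood at 91.1 RPKM against 115. Mag and Gjb1 had no read. Schwann cell markers were low in both libraries: 8 genes summed to 4.84 RPKM in SKPs and 10.5 RPKM in fibroblasts. Of 6 expressed, 4 were lower in SKPs, among them the lineage regulator gene Sox10 (0.953 against 4.05 RPKM). The 1 called higher was S100b (1.01 against 0.454 RPKM, 2.22-fold, 1.15 to 4.50), and 1 was neither.

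NAB proteins act through the NuRD complex. All 13 NuRD subunit genes were expressed, with 12 neither, 1 lower in SKPs and 0 higher, around a median log2 ratio of -0.05. Beside this and the next list, 6.41% of all expressed genes were lower and 12.1% higher. The lower gene was Chd3, a remodelling ATPase (37.7 RPKM against 86.8, 2.30-fold lower, 2.22 to 2.39). Mta3 stood at 12.9 against 20.9 RPKM and Gatad2b at 25.9 against 17.02. Of 5 expressed genes for other zinc-finger proteins that bind GC boxes, 0 were higher, 0 were lower and 5 were neither: Maz was the most abundant, at 73.5 against 81.2 RPKM, and Sp1 had the highest ratio, at 18.9 against 11.1.

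**Figure D4:**
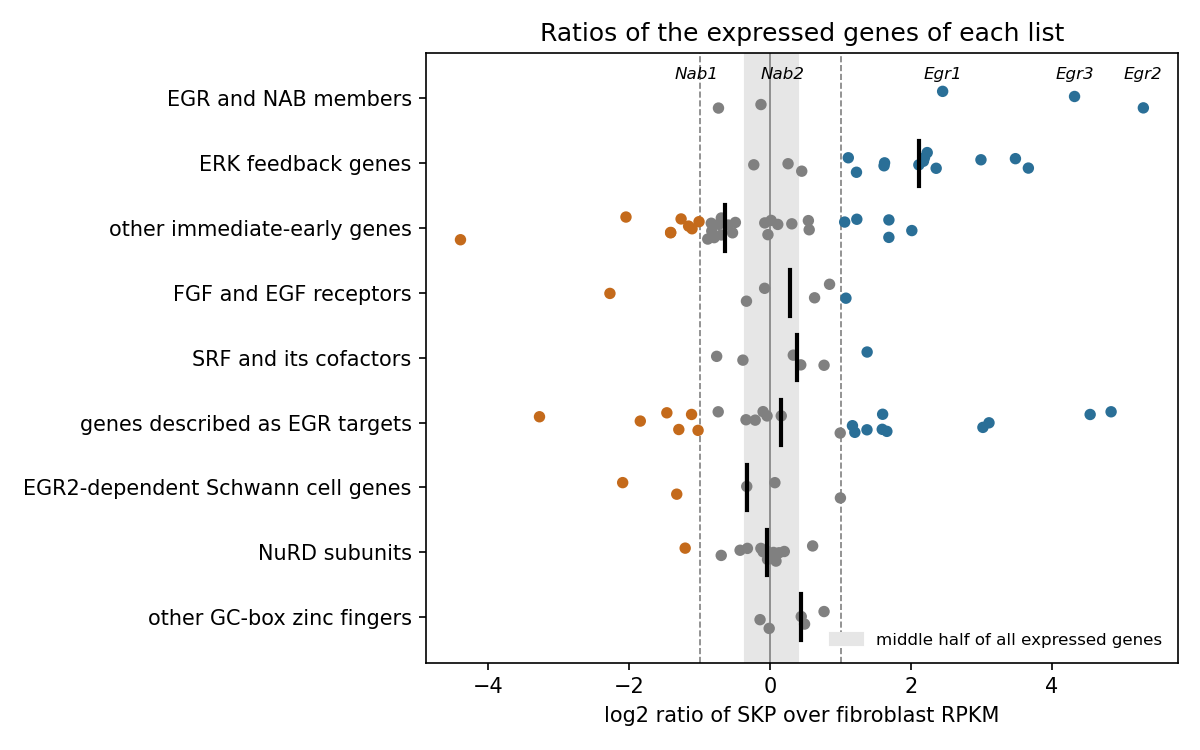
Log2 ratio of SKP over fibroblast RPKM for the expressed genes of each list (points: blue higher, orange lower, grey neither by the 2-fold rule), with the list median as a black bar for all lists but the members and the range between the quartiles of all expressed genes shaded. Egr1, Egr2 and Egr3 and most ERK feedback genes lie to the right of the 2-fold line, while other immediate-early genes centre at -0.64.

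Genes nearest to each member in the plane of the 2 log2 RPKM values, a likeness over 2 libraries only, were Cotl1, Tspan9 and Cdkn2a for Egr1 (distances 0.13 to 0.28). For Egr2 they were Frem1 (37.6 RPKM against 0.907), Rnu1a1 and Il33, and for Egr3 Abcd2, Adam8 and Upp1. Nab1 had Ktn1, Dbf4 and Mecr within 0.05, and Nab2 had Plscr3, Yars and Acot13 within 0.04.

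The summed levels of markers of 6 other cell types were higher in SKPs, like Egr1 to Egr3, though not every marker was. Summed RPKM in the SKP and the fibroblast library was 83.6 against 1.47 for 8 mast cell markers, 32.6 against 3.38 for 9 keratinocyte markers, and 17.3 against 3.29 for 10 leukocyte markers. It was 307 against 30.5 for 6 adipocyte markers, 19.7 against 4.87 for 6 melanocyte markers and 4.88 against 2.03 for 6 endothelial markers. The melanocyte and the endothelial sum each rested mainly on the 1 marker that was expressed, Mitf (16.997 against 3.18 RPKM) and Cdh5 (3.57 against 0.787 RPKM). Fabp4 made up most of the adipocyte sum (243 against 22.6 RPKM), and only 3 of the 10 leukocyte markers were expressed. Other markers had the lower level in SKPs: the mast cell gene Gata2 was called lower (0.551 against 1.23 RPKM), and Tyr (0.447 against 0.838), Kdr (0.328 against 0.547) and Vwf (0.203 against 0.461) were below the expression limit. Reads were 0 in both libraries for Krt15 and Cd3e, and the mast cell receptor gene Ms4a2 had 2 fibroblast reads and 1 SKP read. The part of such cells in the EGR levels was not tested, and more cells of a type and more RNA per cell cannot be told apart in bulk RNA. All 8 dermal fibroblast markers were expressed, with sums of 9710 RPKM in SKPs and 10766 RPKM in fibroblasts. These sums hide opposite directions, since 2 markers were higher in SKPs, 2 were lower and 4 were neither. Among all expressed genes 12.1% were higher and 6.41% lower. Dcn (2007 against 291 RPKM) and Col3a1 (1638 against 454 RPKM) were higher, while Thy1 (313 against 994 RPKM) and Col1a1 (2161 against 4474 RPKM) were lower. All 9 genes listed for SKPs were expressed. Of those 9, beside 12.1% higher and 6.41% lower among all expressed genes, 2 were higher in SKPs, 0 were lower and 7 were neither. The median log2 ratio of the 9 was -0.14. The higher ones were Nes (28.2 against 6.30 RPKM) and Sox2 (1.83 against 0.818 RPKM), while Snai2 (29.0 against 53.9 RPKM) and Ngfr (4.63 against 7.33 RPKM) had the lower level in SKPs.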

How the data were processed

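Oligo(dT)-enriched RNA of 1 fibroblast and 1 SKP library was sequenced as reads of 49 bases. Per the file headers, the deposited count is a whole number of reads per gene with no normalization, and the totals were 18406244 for fibroblasts and 18949264 for SKPs. The headers call these reads unique, yet the totals are 3924587 and 4370357 larger than the deposited numbers of uniquely matched reads, so part of the multiply matched reads seems to be included. The deposited RPKM equals those reads over gene length and total, and the deposited percent values give the share of a gene under reads or of all reads in a mapping class. The authors' deposited table gives a log2 ratio of fibroblast over SKP and an FDR derived from a p-value. In the authors' deposited table the log2 ratio was -2.45 for Egr1, -5.29 for Egr2 and -4.32 for Egr3. These ratios come from the same 2 libraries as those above and are no separate support. Per the submitters' processing notes, mm9 was the genome build. No source used here names the aligner, counter, annotation or strand setting.

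Ratios of SKP over fibroblast RPKM were computed for all genes in Python 3.11.15 (pandas 2.3.3, numpy 2.4.6, scipy 1.17.1; figures in matplotlib 3.10.9). Ratio intervals are Clopper-Pearson at 95%, intervals of levels are exact Poisson, and those of sums and of ratios between genes use the delta method. The code was tested on simulated data. With 1 library per group no count model, test or leave-one-out was possible, and no p-value was computed. Genes of like reads and length lay within 0.8 to 1.25 times of both. The 18 lists held 191 symbols, 6 of them with no read. Members and lists were chosen with earlier results of these data known. Named were all members, up to 3 expressed genes per list with the largest ratio and the most abundant one, and the 3 genes nearest to each expressed member; others named were chosen after their values were seen. Alternatives were other scalings, filters, folds and a pseudocount of 1. Values of some listed genes are not reported here.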

Additional observations from a re-analysis of the deposited data

How the results depend on the processing

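Of 99 recomputed values, 88 stayed within their counting interval or within 1.5 times of a count, and 11 moved. A change of direction was looked for only in the log2 ratios of Egr1, Egr2 and Egr3. No scaling or pseudocount used could reverse ratios of that size, so nothing is read from its absence. Egr1, Egr2 and Egr3 were called higher in the SKP library, and no other member was, under each of 8 alternatives: log2(RPKM + 1), no filter, RPKM 5 or more, 1.5-fold, 4-fold, and scaling by median ratio, by upper quartile or to reads with a single match. The share of all genes tested that were higher ran from 5.85% at 4-fold to 18.7% at 1.5-fold. At 1.5-fold 1 member, Nab1, was lower, as were 14.2% of expressed genes. On the log2(RPKM + 1) scale the differences of Egr2 and Egr3 shrank to 4.27 and 2.87, since a pseudocount draws in genes with few reads. The EGR sum ratio ran from 7.25 to 7.65. In fibroblasts the NAB to EGR ratio was 3.23 from reads not divided by length. With the Nab1 length cut to its covered share, chosen after seeing the data, it was 3.27 in fibroblasts and 0.361 in SKPs.

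Without the filter, 2 FGF and EGF receptors were higher, 1 gene of SRF and its cofactors was lower and 1 other GC-box gene was lower, because more genes were tested. Among all genes tested that way, 12.6% were higher and 6.22% lower. Of the Schwann cell genes, 1 was higher with median-ratio scaling, as were 12.2% of expressed genes. On the log2(RPKM + 1) scale 0 were lower, against 4.21% of expressed genes. No paired analysis was possible because each group had 1 library, and leaving out a library leaves no comparison. Depth limits Egr4, with 1 read per library, and the fibroblast levels of Egr2 and Egr3.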
